A study of Mus musculus with 18 samples.

Results

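The genes described here are 10 that make, move and regulate bile acids in the mouse liver: the enzymes Cyp7a1, Cyp8b1, Cyp27a1 and Cyp7b1, the transporters Slc10a1 and Abcb11, the nuclear receptors Nr1h4 and Nr0b2, and the receptor pair Fgfr4 and Klb. They were picked by gene symbol, and each of the 10 had 1 row among the 14451 genes of the normalized expression table. RNA sequencing was run on 18 whole livers, 3 at each of 6 zeitgeber times (ZT, hours after lights on): ZT1, ZT5, ZT9, ZT13, ZT17 and ZT21. All livers came from WT male mice of 8 to 9 weeks under light and dark phases of 12 h each, and no group was treated, so the comparison in every case is of times of day. The strain is not given in the sources used here. Each mouse gave 1 liver at 1 time, the 3 livers sequenced per group were those with the best RNA among the mice collected, and a single day was sampled, so no cycle was seen to repeat.

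Hepatocytes turn cholesterol into bile acids by a classical route, which opens at the endoplasmic reticulum with hydroxylation of the ring, and by an alternative route, which opens in mitochondria with oxidation of the side chain. Bile acids are pumped across the canalicular membrane into bile, act on fat digestion in the gut, are taken back up in the ileum and return by the portal vein. Bile acids bound to the farnesoid X receptor curb their own synthesis, in the liver through the small heterodimer partner and in the ileum through the hormone FGF15, which acts on the hepatocyte. Bile acid synthesis is a textbook example of a liver function with a daily rhythm. A whole liver holds several cell types, and a lower value cannot tell fewer cells of a type from less RNA per cell.

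Depth ran from 10268168 to 23242842 estimated reads per liver, and the fewest reads behind any value of these 10 genes were 95, for Nr0b2. Values are normalized expression, (estimated reads + 0.5) per 1000000 of a corrected library size, and the column totals ran from 941088 to 1077230. The clock genes Arntl, Nr1d1, Per2 and Dbp, taken to check the time labels, all passed the 3 tests of rhythm used here, with time point means highest at ZT1, ZT5, ZT13 and ZT9. Hepatocyte markers (5 of 5 measured) summed to 65677 to 95868 per liver, with the time point mean lowest at ZT9 (68124) and highest at ZT17 (88676). Alb, with a mean of 64809, made up most of this sum, so its course is largely that of 1 gene. Of the 5 markers, 2 passed the rhythm test described next, both with a peak in the dark.

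Of the 10 genes, 6 had a 24 h rhythm: Cyp7a1, Cyp8b1, Cyp27a1, Abcb11, Nr0b2 and Nr1h4. The rhythm test fitted a 24 h cosine to log2(value + 1) in limma over all 14449 genes above the floor, with Benjamini-Hochberg adjusted p below 0.05 as the threshold, and it called 35.3% of all genes. A limma F test over the 6 time points, which assumes no shape, also called 6 of the 10 against 26.3% of all genes, with Klb in place of Cyp27a1. JTK, a rank test of periods of 20, 24 and 28 h that was rewritten here, called 1 of the 10, Abcb11, against 14.1% of all genes. The median amplitude of the 10 genes was 0.30 on the log2 scale, and that of all genes tested was 0.16. These medians are not matched for level, since the added 1 shrinks the amplitudes of low values. The lowest mean among the 10 was 23.7, for Klb, whereas 12480 of the 14449 genes had a mean of at least 1. The livers of the highest time point all stood above those of the lowest in 9 of the 10 genes, the exception being Cyp7b1. The same held for 70.8% of all genes, and since the times are picked by the values this is a description only.

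**Figure D1:**
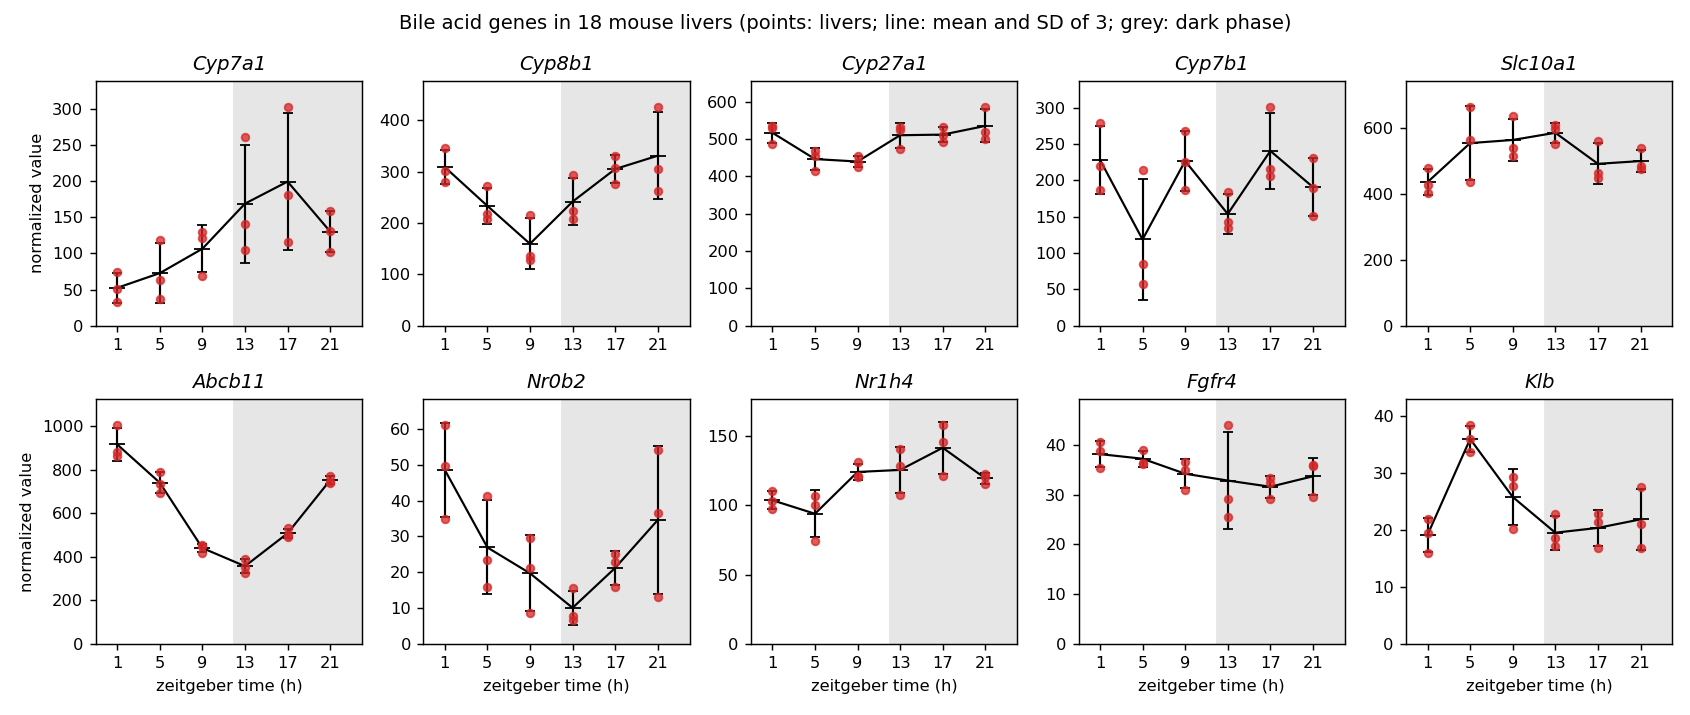
Normalized expression (y axis) of the 10 genes against zeitgeber time in h (x axis), with each liver as a point, the mean and SD of 3 livers as line and bars, and the dark phase in grey. Abcb11 went from a mean of 916 at ZT1 to 357 at ZT13 with narrow bars, while the bars of Cyp7a1 and Nr0b2 are wide.

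Cyp7a1, the cholesterol 7-alpha-hydroxylase that sets the rate of the classical route (ENSMUSG00000028240, chr4:6265612-6275633, minus strand, 6 exons, GRCm38), was low early in the light and high in the dark. The 3 livers of a group held 74.4, 32.5 and 50.04 at ZT1, 62.8, 37.2 and 118 at ZT5 and 121, 69.00 and 129 at ZT9. In the dark phase they held 261, 141 and 105 at ZT13, 302, 115 and 180.4 at ZT17 and 102, 158 and 131 at ZT21. Every liver at ZT17 stood above every liver at ZT1, while the ZT17 values overlapped those of ZT5, ZT9, ZT13 and ZT21. The means were 199 ± 94.8 at ZT17 and 52.3 ± 21.02 at ZT1 (SD, n = 3), a ratio of 3.81. The fitted cosine had an amplitude of 0.91 ± 0.18 (SE, log2 scale), a ratio of peak to trough of 3.52 and a peak at ZT15.3 ± 0.748 h, with adjusted p = 0.00247 in limma. The F test gave adjusted p = 0.0252 and JTK q = 0.0679. The F test lost its call without ZT1 replicate 2 (adjusted p = 0.0679) or ZT1 replicate 3 (adjusted p = 0.0555).

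Cyp8b1, the sterol 12-alpha-hydroxylase needed to make cholic acid (ENSMUSG00000050445, chr9:121914356-121916305, minus strand, 1 exon), was lowest late in the light phase. Its values were 279.6, 302 and 346 at ZT1, 209, 218 and 273 at ZT5 and 216, 127 and 135 at ZT9. They were 207, 294 and 223 at ZT13, 331, 276 and 308 at ZT17 and 306, 426 and 262 at ZT21. All 3 livers at ZT17 and all 3 at ZT21 lay above the highest liver at ZT9. The mean was 331 ± 84.7 at ZT21 and 159 ± 49.5 at ZT9. The rhythm had an amplitude of 0.48 ± 0.09, a ratio of peak to trough of 1.95 and a peak at ZT20.9 ± 0.712 h (limma, adjusted p = 0.00165; F test, adjusted p = 0.00853). JTK gave q = 0.0537, just above the threshold.

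Both enzymes of the classical route were also read against each other in the same liver. The ratio of the Cyp8b1 to the Cyp7a1 value lay between 3.76 and 9.29 at ZT1 and between 1.04 and 1.84 at ZT9. The mean log2 ratio was 2.64 ± 0.66 at ZT1, 1.83 ± 0.68 at ZT5 and 0.59 ± 0.46 at ZT9 (SD, n = 3). It was 0.61 ± 0.81 at ZT13, 0.72 ± 0.57 at ZT17 and 1.34 ± 0.30 at ZT21. The livers at ZT1 all had a higher ratio than those at ZT9, ZT13, ZT17 and ZT21 and overlapped those at ZT5, and the ratio itself was not tested. The fitted peak of Cyp8b1 came 5.600 h (95% interval 3.42 to 7.78 h) after that of Cyp7a1.

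**Figure D2:**
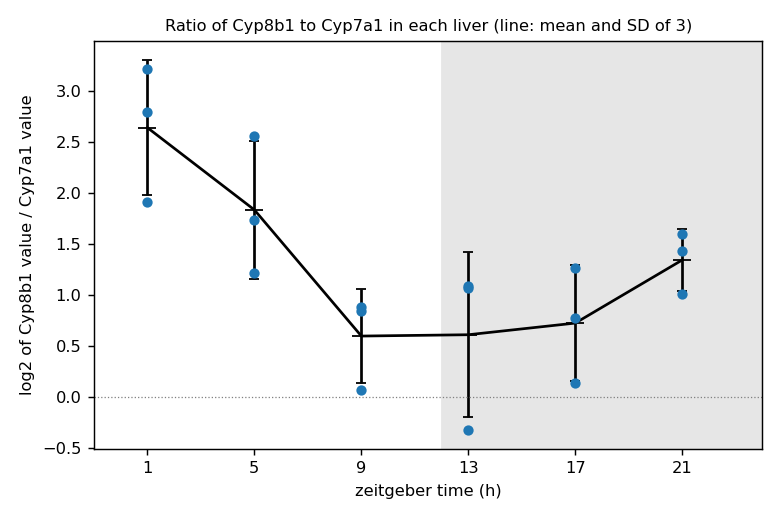
The log2 ratio of the Cyp8b1 value to the Cyp7a1 value in each liver (y axis) against zeitgeber time in h (x axis), with livers as points, the mean and SD of 3 as line and bars, and the dark phase in grey. The mean goes from 2.64 at ZT1 to 0.59 at ZT9, and 1 liver at ZT13 lies below 0.

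Cyp27a1, the mitochondrial sterol 27-hydroxylase of the alternative route (ENSMUSG00000026170, chr1:74713574-74737892, plus strand, 9 exons), varied little over the day. It was at 485, 529 and 535 at ZT1, 414, 455 and 469 at ZT5 and 456, 439 and 424 at ZT9. It was at 533, 525 and 472 at ZT13, 510.3, 532 and 493 at ZT17 and 585, 519 and 501 at ZT21. The 3 livers at ZT9 and the 3 at ZT5 all fell below the lowest liver of ZT13, ZT17, ZT21 and ZT1. The amplitude was 0.14 ± 0.04, which is a ratio of 1.21 between peak and trough, with the peak at ZT19.6 ± 1.01 h and adjusted p = 0.02004 in limma. The F test gave adjusted p = 0.0721 and JTK q = 0.194. The hepatocyte marker Alb had amplitude 0.15 ± 0.05 and a fitted peak at ZT19.8 without passing the limma cosine (adjusted p = 0.0689). Of the other hepatocyte markers, Ttr, Cps1 and Tat had fitted peaks at ZT21.7, ZT17.5 and ZT19.2, and Apoa1 at ZT7.98. Ttr and Tat passed the cosine test, while Cps1 and Apoa1 did not. These markers were named after their values were seen, and their part in the Cyp27a1 course was not tested. With every column rescaled to the same total, the amplitude was 0.09 and the cosine call was lost. The F test passed with a constant of 5 (adjusted p = 0.0237), with a variance trend in limma (adjusted p = 0.0276) and with voom weights (adjusted p = 0.0137).

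Cyp7b1, the oxysterol 7-alpha-hydroxylase that acts after Cyp27a1 (ENSMUSG00000039519, chr3:18071950-18243338, minus strand, 6 exons), had no 24 h rhythm past the threshold. The values were 279, 219.8 and 187 at ZT1, 57.1, 214 and 84.98 at ZT5 and 186, 268 and 226 at ZT9. In the dark they were 135, 142 and 185 at ZT13, 206, 301 and 215 at ZT17 and 231, 190.1 and 151 at ZT21. ZT5 replicates 1 and 3 held the lowest values of all 18 livers, while ZT5 replicate 2 lay among those of the other times. The cosine gave an amplitude of 0.28 ± 0.18 with adjusted p = 0.411, and the F test gave adjusted p = 0.0703. Without ZT5 replicate 2 the F test passed, with adjusted p = 0.00114 in limma.

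Slc10a1, the sodium-dependent transporter that takes bile acids up from portal blood (ENSMUSG00000021135, chr12:80953183-80968705, minus strand, 6 exons), stayed within a narrow band. Its values were 425, 402 and 479.5 at ZT1, 437, 562 and 663 at ZT5 and 538, 516 and 636 at ZT9. In the dark phase these were 608, 550.3 and 597 at ZT13, 463, 562 and 448 at ZT17 and 539, 485 and 474 at ZT21. The means ran from 436 ± 39.9 at ZT1 to 585 ± 30.7 at ZT13, and the ranges of those 3 and 3 livers did not overlap. Its cosine amplitude of 0.17 ± 0.06 had adjusted p = 0.0695, the F test adjusted p = 0.164 and JTK q = 0.976. The cosine test passed without ZT5 replicate 3 (amplitude 0.18) or ZT21 replicate 1 (amplitude 0.20), and the F test without ZT5 replicate 1 (adjusted p = 0.0477). With every column rescaled to the same total the amplitude was 0.20 and passed, as it did with a constant of 5 or a variance trend in limma, at 0.17 in both.

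Abcb11, the bile salt export pump of the canalicular membrane (ENSMUSG00000027048, chr2:69238282-69342616, minus strand, 29 exons), had the clearest rhythm of the 10 genes by adjusted p. The livers held 863, 881 and 1004 at ZT1, 736, 789 and 695 at ZT5 and 454, 448 and 417 at ZT9. After lights off they held 326, 391 and 353 at ZT13, 492, 498 and 533 at ZT17 and 739.9, 772 and 744 at ZT21. The 3 livers at ZT1 were the highest of all 18 and overlapped no other group, and those at ZT13 were the lowest of all. The mean went from 916 ± 76.3 at ZT1 to 357 ± 32.9 at ZT13, a ratio of 2.57. The amplitude was 0.68 ± 0.04 and the peak fell at ZT0.623 ± 0.216 h, with adjusted p = 7.27e-09 for the cosine, adjusted p = 3.54e-07 for the F test and JTK q = 0.00474.

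Nr1h4, the farnesoid X receptor, which binds bile acids (ENSMUSG00000047638, chr10:89454234-89533585, minus strand, 9 exons), was highest in the dark. It stood at 97.3, 103 and 110.5 at ZT1, 74.5, 107 and 100.05 at ZT5 and 120.2, 121 and 131 at ZT9. In the dark it stood at 141, 128 and 108 at ZT13, 158, 121 and 146 at ZT17 and 123, 121 and 115 at ZT21. All livers at ZT17 lay above those at ZT1 and ZT5, and the lowest liver at ZT17 fell within the range of ZT9. The amplitude was 0.25 ± 0.06, a ratio of 1.42, with the peak at ZT15.6 ± 0.869 h (limma cosine, adjusted p = 0.00751). The F test gave adjusted p = 0.0323 and JTK q = 0.0537. The F call was lost in 5 of 18 fits that each left out 1 liver, namely ZT1 replicate 1 or 2, ZT5 replicate 1, and ZT17 replicate 1 or 3, with adjusted p up to 0.0732. It was also lost with equal column totals (adjusted p = 0.0717).

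Nr0b2, the small heterodimer partner, a receptor without a DNA-binding domain that represses bile acid synthesis genes (ENSMUSG00000037583, chr4:133553376-133556536, plus strand, 2 exons), was high around lights on. Its values were 34.99, 61.1 and 49.8 at ZT1, 23.5, 41.5 and 15.9 at ZT5 and 8.47, 21.2 and 29.5 at ZT9. In the dark they were 7.83, 6.74 and 15.6 at ZT13, 25.01, 15.9 and 22.8 at ZT17 and 36.6, 54.1 and 13.1 at ZT21. Every liver at ZT1 was above every liver at ZT9, ZT13 and ZT17, while the livers at ZT21 ranged from within the values of ZT13 to within those of ZT1. The mean was 48.6 ± 13.1 at ZT1 and 10.1 ± 4.83 at ZT13, a ratio of 4.84. Its amplitude of 0.91 ± 0.20 matched that of Cyp7a1 to 2 decimals in the main setting. Over the other settings its amplitude ran from 0.77 to 1.03, and that of Cyp7a1 from 0.81 to 1.03. Nr0b2 had its peak at ZT0.418 ± 0.834 h, with adjusted p = 0.005601 for the cosine in limma. The F test gave adjusted p = 0.0438 and JTK gave q = 0.0844. The F call was lost in 11 of 18 fits that each left out 1 liver: any of ZT1 or ZT17, ZT5 replicate 1, ZT9 replicate 2, ZT13 replicate 1 or 2, or ZT21 replicate 1, with adjusted p up to 0.118. It was also lost with no constant added before the log (adjusted p = 0.0702), with a constant of 0.1 (adjusted p = 0.0658) and with voom weights (adjusted p = 0.05001).

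Fgfr4, the receptor tyrosine kinase for FGF15 (ENSMUSG00000005320, chr13:55152640-55168759, plus strand, 18 exons), showed no rhythm past the threshold. Its values were 40.5, 35.2 and 38.7 at ZT1, 39.03, 36.1 and 36.4 at ZT5 and 30.9, 34.99 and 36.6 at ZT9. In the dark they were 43.9, 29.1 and 25.4 at ZT13, 33.3, 29.03 and 32.3 at ZT17 and 35.7, 35.8 and 29.4 at ZT21. ZT13 held both the highest and the lowest of the 18 livers, replicates 1 and 3. The amplitude was 0.14 ± 0.06 with adjusted p = 0.156 for the cosine and adjusted p = 0.546 for the F test. Without ZT13 replicate 1 the amplitude was 0.19 and the cosine test passed.

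Klb, the co-receptor beta-Klotho that Fgfr4 needs to bind FGF15 (ENSMUSG00000029195, chr5:65348314-65384007, plus strand, 5 exons), rose between ZT1 and ZT5. The livers held 19.4, 15.96 and 21.9 at ZT1, 33.6, 38.3 and 35.9 at ZT5 and 29.3, 27.7 and 20.2 at ZT9. In the dark they held 22.8, 17.1 and 18.5 at ZT13, 22.7, 16.8 and 21.4 at ZT17 and 16.8, 27.5 and 21.1 at ZT21. The 3 livers at ZT5 stood above all others, and the remaining groups overlapped each other. The mean was 35.9 ± 2.35 at ZT5 and 19.1 ± 3.0 at ZT1. The F test called Klb (adjusted p = 0.0108), whereas the cosine, with amplitude 0.31 ± 0.10, gave adjusted p = 0.0526 and JTK q = 0.976. The cosine passed in 5 of 18 fits that each left out 1 liver, namely ZT1 replicate 1 or 2, ZT9 replicate 3, ZT17 replicate 1 and ZT21 replicate 2, and with equal column totals its amplitude was 0.36 and passed. It also passed with a constant of 5, with a mean value of at least 1, with a variance trend in limma and with voom weights, at amplitudes of 0.27 to 0.35. A 12 h term added beside the 24 h cosine passed for 0 of the 10 genes and for 0.872% of all genes in limma, and the only one of the 10 with an unadjusted p under 0.05 was Klb, with amplitude 0.27 and adjusted p = 0.246.

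Steps between neighbouring times showed where the 10 genes moved. Of 60 combinations of gene and step, 5 passed in limma, all of Klb or Abcb11, and steps next to each other share livers. Klb rose by 0.89 ± 0.18 (SE, log2 scale) from ZT1 to ZT5 with adjusted p = 0.0102, a step at which 2.53% of all genes were called higher and 2.36% lower. Without ZT1 replicate 2 this difference was 0.77 and did not pass. Abcb11 differed by -0.75 ± 0.09 from ZT5 to ZT9 (adjusted p = 0.000526), where 0.9% of all genes were called lower and 0.637% higher. From ZT9 to ZT13 the Abcb11 difference was -0.30 ± 0.09 (adjusted p = 0.0486), where 4.6% of genes were called lower and 4.64% higher, and this call was lost in 16 of 18 fits that each left out 1 liver, the 2 exceptions being ZT1 replicate 3 and ZT13 replicate 2, with differences from -0.34 to -0.24. Abcb11 then rose by 0.51 ± 0.09 from ZT13 to ZT17 (adjusted p = 0.0128), where 0.671% of genes were called higher and 0.533% lower. Without ZT13 replicate 1 or ZT17 replicate 3 the difference was 0.45 or 0.48 and did not pass. It rose again by 0.57 ± 0.09 from ZT17 to ZT21 (adjusted p = 0.00824), where 0.941% were called higher and 0.568% lower. From ZT21 to ZT1 none of the 10 genes passed, and 0.0277% of all genes were called higher and 0.104% lower. Over that step Cyp7a1 differed by -1.35 ± 0.45 with adjusted p = 0.372, the widest difference of the 10 genes at any step by size.

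The 6 rhythmic genes peaked at 3 stretches of the cycle: Cyp7a1 and Nr1h4 early in the dark, Cyp27a1 and Cyp8b1 late in the dark, and Nr0b2 and Abcb11 just after lights on. Nr1h4 followed Cyp7a1 by 0.224 h (95% interval -1.86 to 2.303 h), an interval that spans 0. Cyp27a1 peaked later than Nr1h4 by 3.99 h (95% interval 1.32 to 6.66 h). Cyp8b1 came after Cyp27a1 by 1.38 h (95% interval -0.801 to 3.57 h), which also spans 0. The peak of Nr0b2 came after that of Cyp8b1 by 3.48 h (95% interval 1.03 to 5.93 h), and Abcb11 came after Nr0b2 by 0.205 h (95% interval -1.58 to 1.99 h). Nr0b2, the repressor, and Cyp7a1, the enzyme at the head of the classical route, peaked 9.08 h (95% interval 6.98 to 11.2 h) apart. Livers were taken 4 h apart, so these times come from the fitted curve and not from sampling at that resolution.

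**Figure D3:**
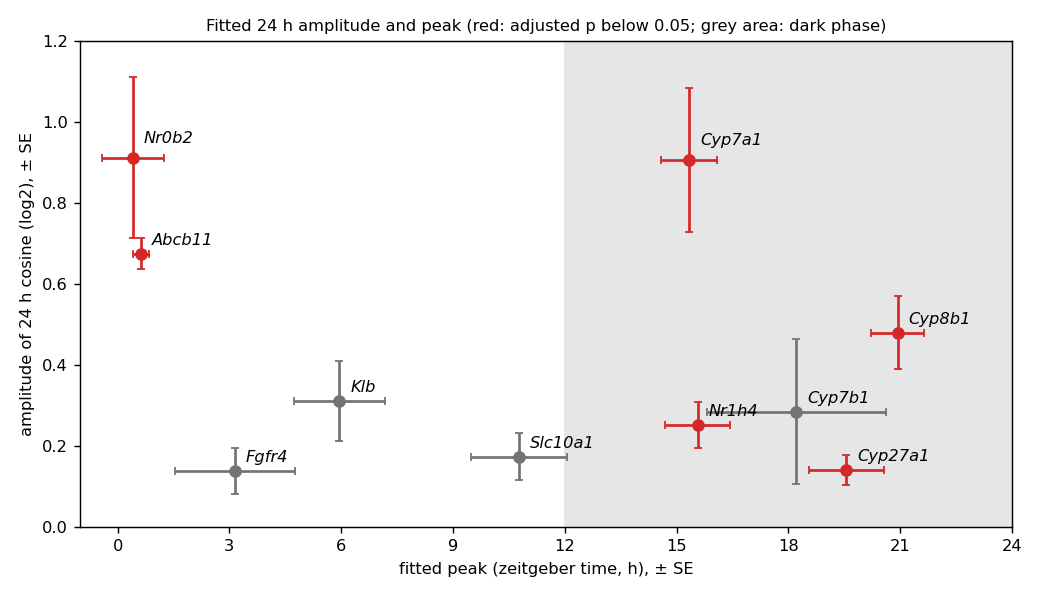
Amplitude of the fitted 24 h cosine on the log2 scale (y axis) against its peak in zeitgeber time (x axis), each with its SE, for the 10 genes, with the dark phase in grey and genes of adjusted p below 0.05 in red. In the main setting shown, Cyp7a1 and Nr0b2 share an amplitude of 0.91 but lie at ZT15.3 and ZT0.418.

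Abcb11 and Nr0b2, whose fitted peaks fell 0.205 h apart, are shown with the 250 bases before their RefSeq start sites (GRCm38.p6), 5′ to 3′ on the strand of the gene. The Abcb11 stretch is chr2:69342617-69342866, minus strand, with capitals marking AGGTCA, a nuclear receptor motif, found on the opposite strand at -56 to -51 from the start. The Nr0b2 stretch is chr4:133553126-133553375, plus strand, with capitals marking CACGTG, the E-box letters, at -195 to -190.
Abcb11: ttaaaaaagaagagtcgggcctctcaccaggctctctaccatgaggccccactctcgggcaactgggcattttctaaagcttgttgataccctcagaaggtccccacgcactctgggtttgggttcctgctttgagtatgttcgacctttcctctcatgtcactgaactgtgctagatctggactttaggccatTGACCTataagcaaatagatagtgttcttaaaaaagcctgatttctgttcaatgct
Nr0b2: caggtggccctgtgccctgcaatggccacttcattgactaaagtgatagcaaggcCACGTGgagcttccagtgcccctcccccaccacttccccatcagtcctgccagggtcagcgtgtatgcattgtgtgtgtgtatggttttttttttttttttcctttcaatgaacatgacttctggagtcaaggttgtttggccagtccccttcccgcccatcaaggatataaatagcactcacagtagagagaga
RefSeq promoter entries were matched for 8 of the 10 genes, and those of Cyp7a1 and Cyp7b1 were not analysed here. Both strands were searched for the E-box of the Nr0b2 line, for the D-box letters TTANGTAA and for the Nr5a2 motif TCAAGGNCA. They were also searched for the receptor motif of the Abcb11 line and for an inverted repeat of it with 1 base between. A hit of the repeat also counts as that motif. No mismatch was allowed, with N as any base, so a repeat with a changed letter was not counted as a repeat. AGGTCA was also found in Nr1h4 at -214 to -209 from a RefSeq start that lies inside the annotated gene. Slc10a1 has 2 RefSeq starts, and the stretch before the annotated gene start held none of the motifs, while that before a start inside the annotated gene held AGGTCA at -87 to -82. The stretches of Cyp8b1, Cyp27a1, Fgfr4 and Klb held none of the 5 motifs. Those of Fgfr4 and Klb also end at RefSeq starts inside the annotated gene. Among 32851 promoter stretches of 250 bases, 14.02% held AGGTCA, 6.02% CACGTG, 2.06% TTANGTAA, 1.39% TCAAGGNCA and 0.00609% the inverted repeat. A run of letters is a description of the sequence and not a measurement of binding.

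Livers of the same time point differed far more in some of these genes than in others. The coefficient of variation (CV) between 3 livers, averaged over the 6 times, was 43.2% for Nr0b2, 40.9% for Cyp7a1 and 28.2% for Cyp7b1. For Nr0b2 98.00% and for Cyp7a1 97.4% of 12480 genes with a mean value of at least 1 had a lower CV. Counting error was at most 10.3% for Nr0b2 and 5.29% for Cyp7a1, taken at the liver with fewest reads and covering counting only. The CV was 5.63% for Cyp27a1 and 5.86% for Abcb11, below the lower quartile of 8.08% over those genes, whose median was 12.0%. The remaining 5 genes lay between 9.87% for Nr1h4 and 18.4% for Cyp8b1.

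**Figure D4:**
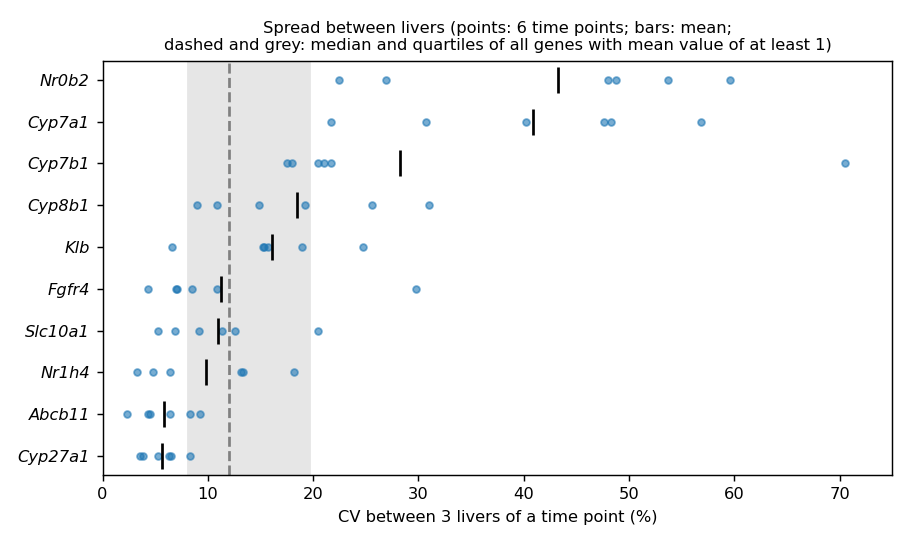
CV in percent between the 3 livers of a time point (x axis) for each of the 10 genes (y axis), with the 6 times as points, their mean as a bar, and the median and quartiles of 12480 genes as a dashed line and grey band. Nr0b2, Cyp7a1 and Cyp7b1 have means beyond the upper quartile of 19.7%, and Abcb11 and Cyp27a1 have means under the lower one.

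Whether a liver high in 1 gene was also high in another at the same hour was asked for 10 pairs, as correlations of deviations from the time point mean over 18 livers, and 0 of 10 passed after adjustment. Pearson and Spearman tests each gave 1 pair with an unadjusted p under 0.05, Fgfr4 and Cyp7a1, the receptor and the enzyme. For these r = 0.527 with a two-sided exact permutation p = 0.0391, adjusted p = 0.391, and rho = 0.494 with exact permutation p = 0.0468, adjusted p = 0.468. Without ZT13 replicates 1 and 3, the livers whose Fgfr4 deviations lay farthest from the median deviation, r was 0.325 with exact permutation p = 0.236. Nr0b2 and Cyp7a1, repressor and target, gave r = -0.318 (exact permutation p = 0.225, adjusted p = 0.633) and rho = -0.317 (exact permutation p = 0.239, adjusted p = 0.798). Without the livers whose Nr0b2 deviations lay farthest from the median deviation, ZT9 replicate 1 and ZT21 replicate 3, that r was -0.377 (exact permutation p = 0.285). The other 8 pairs had r between -0.0983 for Nr0b2 and Cyp8b1 and 0.3903 for Klb and Cyp7a1.

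Levels were compared between genes per kb of transcript, as the mean value over 18 livers divided by length. Slc10a1 at 298 per kb and Cyp27a1 at 261 per kb led, followed by Cyp8b1 at 135, Abcb11 at 123 and Cyp7b1 at 89.2 per kb. The regulators and the head enzyme of the classical route came lower, with Nr1h4 at 60.1, Cyp7a1 at 29.2 and Nr0b2 at 23.7 per kb. The receptor pair was lowest, with Fgfr4 at 10.4 and Klb at 6.704 per kb. The length is that of the principal annotated transcript, which need not be the form used in the liver.

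Among the other bile acid genes, 28 of 48 measured had a 24 h rhythm by the limma cosine, against 35.3% of all genes tested, and 16 of the 28 peaked in the light. Over all genes, 2634 of the 5103 with a rhythm peaked in the light and 2469 in the dark. Of 16 further enzymes of synthesis and conjugation, 9 passed, 3 with a peak in the light and 6 in the dark. Hsd3b7, the dehydrogenase that follows 7-alpha-hydroxylation, had means of 559 ± 28.8 at ZT1 and 229 ± 15.6 at ZT13 (SD, n = 3), an amplitude of 0.62 ± 0.04 and a peak at ZT1.199 (adjusted p = 3.44e-08). Its peak lay near that of Abcb11 and far from that of Cyp7a1, by values set side by side and not tested. Baat, which joins bile acids to taurine, had means of 319.5 ± 13.9 at ZT17 and 223 ± 10.3 at ZT9 and a peak at ZT18.96 (adjusted p = 0.000253). Amacr and Acox2, which act on the side chain in peroxisomes, peaked at ZT5.34 (adjusted p = 0.000274) and ZT21.96 (adjusted p = 0.000355). The steroid dehydrogenase Akr1c6 had the highest adjusted p of the list, 0.316.

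Of 16 further transporters of bile, 10 passed, 9 with a peak in the light and 1 in the dark, a split that was not tested against that of all genes. Abcg8 and Abcg5, the paired subunits that send cholesterol into bile, had the lowest adjusted p of the list. Abcg8 had means of 120.0 ± 16.9 at ZT5 and 24.4 ± 3.801 at ZT17, an amplitude of 1.13 ± 0.07 and a peak at ZT6.63 (adjusted p = 1.28e-08). Abcg5 had means of 112 ± 14.4 at ZT9 and 35.7 ± 2.96 at ZT21, an amplitude of 0.93 ± 0.07 and a peak at ZT7.97 (adjusted p = 2.03e-07). Abcc2, the canalicular exporter of conjugates, peaked at ZT6.96 with an amplitude of 0.37 ± 0.06 (adjusted p = 0.000553), and the exporter Abcb1a at ZT10.2 with 0.53 ± 0.09 (adjusted p = 0.000672). Slco2b1, an organic anion carrier, had the highest adjusted p, 0.928, and Slc51b, a subunit of the basolateral exporter, was at the floor of no reads in 1 liver.

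Of 16 further regulators, 9 passed, 4 with a peak in the light and 5 in the dark. Rxra, the partner of Nr1h4 on DNA, had means of 381 ± 21.7 at ZT9 and 284 ± 20.5 at ZT21 and a peak at ZT9.41 with an amplitude of 0.25 ± 0.04 (adjusted p = 0.000256). Hnf4a, a hepatocyte factor that drives Cyp7a1 and Cyp8b1, had means of 699 ± 76.2 at ZT13 and 453 ± 8.74 at ZT1 and a peak at ZT12.8 (adjusted p = 0.00372). The pregnane X receptor Nr1i2 peaked at ZT14.4 (adjusted p = 0.00279) and the oxysterol receptor Nr1h3 at ZT16.6 (adjusted p = 0.00433). Onecut1, a hepatocyte factor, had the highest adjusted p, 0.851. Ch25h, Slc51a, Vdr and Gpbar1 were listed but not analysed here.

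**Figure D5:**
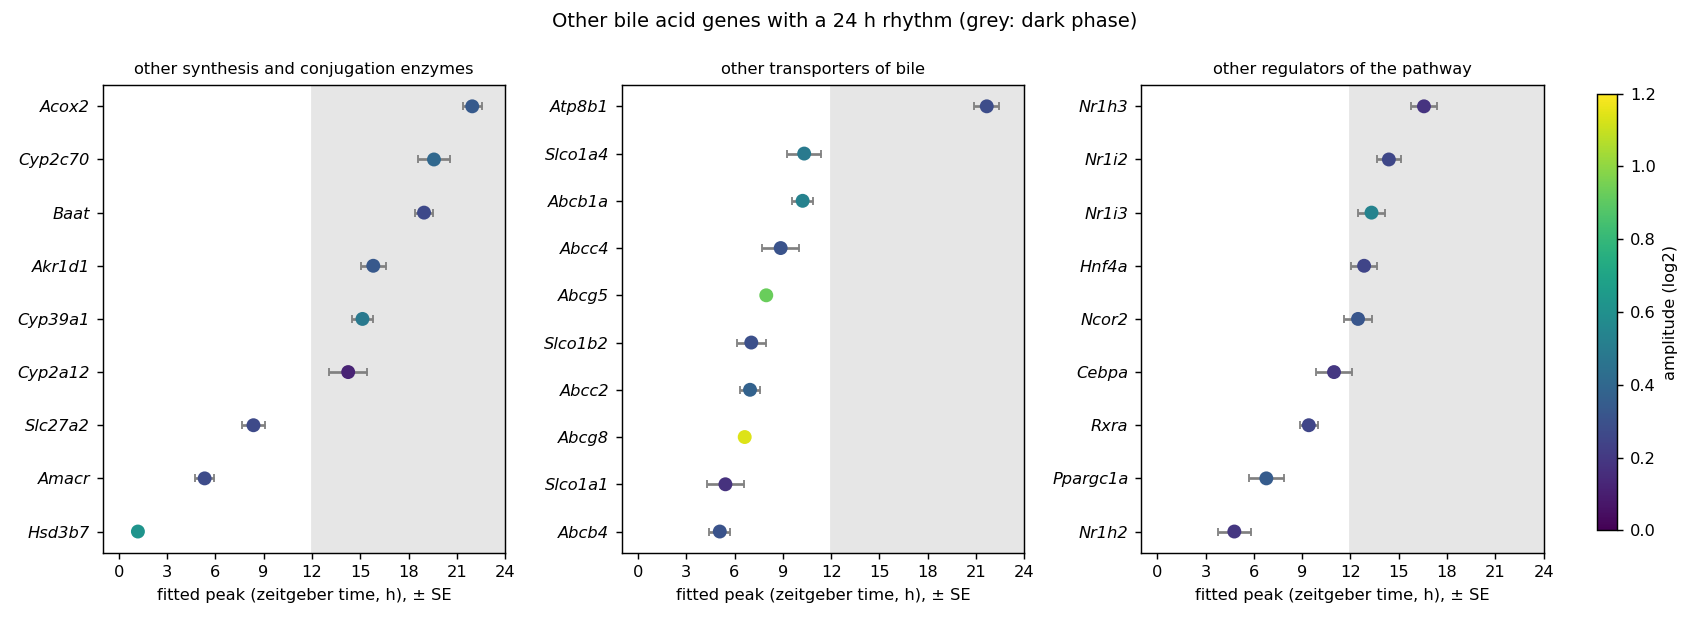
Fitted peak in zeitgeber time with its SE (x axis) of the 28 other bile acid genes with a 24 h rhythm (y axis), in 3 groups by role, colored by amplitude on the log2 scale, with the dark phase in grey. Of the transporters 9 of 10 lie in the light, against 3 of 9 enzymes and 4 of 9 regulators.

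Markers of other cells were read beside these values. The cosine test called 35.3% of all genes. Cholangiocyte markers, 5 measured, summed to 31.5 to 57.5 per liver, and 3 of them passed the cosine test, all with a dark peak. Those 3, Krt19, Epcam and Sox9, had low means of 1.58, 1.37 and 5.74. Spp1, with a mean of 34.8 the largest part of the sum, did not pass the limma cosine (adjusted p = 0.191). Kupffer cell markers summed to 84.4 to 223 with the mean highest at ZT9 and 1 of 4 passing. Sinusoidal endothelial markers summed to 62.04 to 140.5 with 2 of 4 passing, both with a light peak. Stellate cell markers summed to 131 to 207 and red blood cell markers to 96.9 to 367, with none of 4 and none of 3 passing. Of the ileal list Slc10a2 alone was measured, at 21.8 to 54.8, and it also stands in the list of further transporters of bile. Fabp6, Fgf15 and Vil1 of the ileal list had no row under those symbols. Of the pancreatic list Ctrb1 alone was measured, at the floor in 17 livers and at most 1.13. Their part in the rhythms above was not tested.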

How the data were processed

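Whole livers of 18 mice were sequenced, 3 at each of 6 zeitgeber times, with groups taken from the labels. Per the labels and the study's methods, reads were called with CASAVA 1.8.2, trimmed with cutadapt, counted with RSEM 1.2.20 on the GRCm38 transcriptome of Ensembl gene-build 84 and normalized with limma. The deposited values are a normalized signal, (estimated reads + 0.5) per 1000000 of an effective library size, and reads per liver were recovered from the value of a gene with no reads. Genes at that floor in every liver (2) were left out, and 14449 were tested.

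Values were taken as log2(value + 1), which understates changes of low values, and fitted in R 4.3.3 with limma 3.58.1: a 24 h cosine, a 12 h term beside it, an F test over 6 times and 6 steps between neighbouring times, each with Benjamini-Hochberg adjustment over all genes and a threshold of 0.05. JTK, 1 of the study's methods, was rewritten in Python 3.11.15 (numpy 2.4.6, scipy 1.17.1, pandas 2.3.3) with periods of 20, 24 and 28 h. The rewrite called 2039 of 14449 genes, fewer than the study reports as found by JTK, MetaCycle and CircaN alike in these livers. The study also reports a further large set found by JTK and MetaCycle but not by CircaN, so its JTK called many more genes. Some time points have equal cosines, and the main setting of the rewrite used a null without such ties. The calls of the rewrite therefore need not be those of the study's own JTK run. The study's other methods, CircaN and MetaCycle, were not run here. Intervals of peak differences used the residual covariance of both genes, and correlations within times used exact permutation, two-sided, adjusted over 10 pairs. Both fits were tested on simulated data. The alternatives were constants of 0, 0.1 and 5, a mean of at least 1, other scalings, a variance trend, voom weights, 1 JTK period, ties in the JTK null, and each liver left out.

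The 10 genes, the lists and the tests were chosen with earlier results of these data known. Beside the 10, the genes named are, Arntl, Nr1d1, Per2 and Dbp as a check of the labels, per list, up to 4 with the lowest adjusted p of the cosine below 0.05, the 1 with the highest, and those at the floor, and, for likeness, the 2 with the highest r per gene. The hepatocyte markers set beside Cyp27a1 were named after their values were seen. Gene positions are those of GENCODE M21 on GRCm38, promoters those of RefSeq.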

Additional observations from a re-analysis of the deposited data

How the results depend on the processing

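The cosine called 6 of the 10 genes, 6 to 7 with 1 liver dropped and up to 8 under the other settings. Of the 6, Cyp27a1 lost its call with equal column totals, and the others passed in every setting run. Of the other bile acid genes, 28 were called, and 24 to 28 with 1 liver dropped. The 12 h term and the pairs of genes stayed at 0 of 10 in all settings. The F test called 6 genes and 3 to 7 with a liver left out, with 3 without ZT1 replicate 2. Calls between neighbouring times numbered 5 and became 8 with a trend in limma's prior variance, and 3 to 6 with a liver left out, with 3 without ZT1 replicate 2, ZT13 replicate 1 or ZT17 replicate 3. JTK called 1 gene, but 3 with a mean value of at least 1, 5 with time points of equal cosine taken as 1 group, 4 with the 24 h period alone, and 1 to 4 with a liver left out. It called 2 without ZT5 replicate 3, ZT9 replicate 3, ZT13 replicate 2 or ZT17 replicate 2, 3 without ZT13 replicate 3, and 4 without ZT21 replicate 3. With a liver left out, 4 correlations that pass in no setting changed sign, with r of -0.436 to 0.305 for Nr0b2 and Cyp8b1 (positive without ZT9 replicate 1), -0.125 to 0.268 for Nr0b2 and Slc10a1 (negative in 7 fits), -0.113 to 0.302 for Nr1h4 and Abcb11 (negative without ZT1 replicate 3 or ZT5 replicate 2) and -0.105 to 0.331 for Cyp27a1 and Cyp7b1 (negative without ZT5 replicate 1). No other value given an alternative changed direction, and the cause of these changes was not tested. Rescaling to equal totals moved the median of all genes by -0.11 to 0.09 (log2) per liver and the peak of Abcb11 to 0.917 h. With 3 livers a time and 1 day, the limma p-values weigh differences over time against the spread between these mice only. Depth limits Nr0b2 most.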

Other observations

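The genes whose course over the 18 livers was most like that of each bile acid gene were ranked by Pearson's r on log2(value + 1) among 12480 genes with a mean value of at least 1. These are descriptions with no test, since all genes share the same livers and the same day. Abcb11 ran closest to Crot (r = 0.967) and Tymp (r = 0.962), the first of which is a peroxisomal carnitine acyltransferase. Nr0b2 ran closest to 8430408G22Rik (r = 0.881) and Igfbp1 (r = 0.858), of which Igfbp1 codes for a secreted binding protein of insulin-like growth factors. Cyp7a1 ran closest to Rwdd4a (r = 0.849) and Rrp1b (r = 0.848), and Cyp8b1 to Slc16a1 (r = 0.905) and Maob (r = 0.876), of which Slc16a1 is a monocarboxylate carrier and Maob a mitochondrial amine oxidase. Cyp7b1 ran closest to Mup7 (r = 0.894) and Cyp4v3 (r = 0.883), where Mup7 belongs to a family of near-identical genes whose reads may be split among its members.

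For the other 5 genes the likeness was of the same order. Cyp27a1 ran closest to Minos1 (r = 0.9004) and Bcl7c (r = 0.896), and Slc10a1 to Zfp276 (r = 0.905) and Nufip2 (r = 0.882). Nr1h4 ran closest to Ndufaf3 (r = 0.856) and H2-D1 (r = 0.837), Klb to Taok3 (r = 0.873) and Usf2 (r = 0.856), and Fgfr4 to Arid3b (r = 0.7900) and Fam195b (r = 0.758), the weakest likeness of the 10.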
